A study of Mus musculus with 30 samples.

Results

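The 10 genes described here are the core transcription factors of the skeletal muscle lineage and the 2 membrane proteins that fuse muscle cells: the myogenic basic helix-loop-helix factors Myod1, Myf5, Myog and Myf6, the paired-box factor Pax7, the MEF2 factors Mef2a, Mef2c and Mef2d, and the fusogens Mymk and Mymx. They were listed by name, with no threshold on their values, and all 10 were found by Ensembl identifier among the 55487 genes of the count table (older symbols of Mymk and Mymx are Tmem8c and Gm7325). RNA-sequencing was performed on wild-type C2C12 myotubes, multinucleated fibres formed in culture by an established mouse myoblast line that has no nerve, vessel or other tissue around it. All 30 cultures were first differentiated for 4 days in low-glucose medium with 2% horse serum and then held for a further 4 days in 1 of 5 conditions, giving 8 days in all. The 2% HS group stayed in 2% horse serum. The SD group was serum-deprived, that is, held without serum. The MET group was serum-deprived with 100 nM metformin, the LEU group with 500 nM leucine, and the MET+LEU group with both. Each group had 6 replicate libraries, and nothing in the labels says whether these came from separate passages or days, so the p-values below measure the spread between these libraries, which may be technical in part.

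Myogenic differentiation proceeds through an ordered set of these factors. Pax7 marks muscle stem cells and reserve cells, Myf5 and Myod1 commit cells to the lineage, Myog drives the switch to terminal differentiation, and Myf6 (MRF4) is a late factor of maturing fibres. The basic helix-loop-helix factors bind the E-box CANNTG as dimers with E proteins, and MEF2 proteins bind A/T-rich sites and act with them on muscle genes. Mymk (myomaker) and Mymx (myomixer) are muscle-specific membrane proteins that together are sufficient to let cells fuse, Mymk acting on the mixing of the outer membrane layers and Mymx on the opening of the fusion pore.

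The libraries held between 12784960 and 19604103 counts. MET+LEU replicate 6 stood apart in its ribosomal RNA, with 5.85% of its counts on nuclear and 7.64% on mitochondrial rRNA genes, where no other library passed 1.96% and 0.760%. The members' calls in MET+LEU, the list genes named there, the marker sums and the correlations over the libraries are therefore also given or checked without this library. The correlations of deviations from the group means were not recomputed without it. The mitochondrial rRNA share also differed between groups. It was 0.22% to 0.31% in 2% HS, 0.28% to 0.37% in SD, 0.24% to 0.705% in MET and 0.50% to 0.71% in LEU. MET+LEU replicates 1 to 5 were at 0.65% to 0.76%, above every 2% HS and SD library. The part of this share in the results was not tested. All 16 muscle fibre markers examined had a median count of at least 10, with a summed level of 35340 to 49910 CPM, that is, counts scaled by TMM to the library size and expressed per 1e6 counts. The largest part of this sum was Ttn, at 19870 to 32540 CPM (median 25860) over the 30 libraries. Of 27 markers of other cell types (fibroblast, fat, bone, endothelial, immune, Schwann, tendon and mural cells), 16 had a median count under 10 and Tcf21 and Adgre1 were at 0 in every library, which allows up to 3 counts a library. Acta2 (1800.0 to 2665 CPM) and Col1a1 (516 to 860 CPM) made up most of the rest.

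The genes lie on separate chromosomes or well apart, with the exception of Myf5 and Myf6. In the GRCm38 build Myod1 was at chr7:46376474-46379099 on the plus strand, Myog at chr1:134289989-134292548 on the plus strand, and Pax7 at chr4:139737062-139833528 on the minus strand. Myf5 (chr10:107482908-107486134) and Myf6 (chr10:107492853-107494737) are neighbours on the minus strand, 6718 bp apart with no shared exon. Mef2a was at chr7:67231163-67372858 on the minus strand, Mef2c at chr13:83504034-83667080 and Mef2d at chr3:88142372-88172086, both on the plus strand. Mymk was at chr2:27061636-27072179 and Mymx at chr17:45600971-45602102, both on the minus strand. Exons of Mef2a overlap those of Lysmd4 on the opposite strand (195 to 356 counts a library), and exons of Mef2d overlap the antisense gene 1700113A16Rik (1 to 25 counts). The library kit kept strand, but the setting used in counting is not given in the sources used here, so reads from either partner of these pairs cannot be told apart.

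The bases in front of 3 of the genes are shown. Myog was the highest of the set per length in every group, and Mef2c was the member that rose with MET+LEU. Mef2d fell there, though its call was lost in some of the alternative fits. Myf6 and Mymx, with larger log2 fold changes in SD vs. 2% HS (-0.73 and -0.39, against -0.12 for Mef2d), had no window at hand. Sequences are from RefSeq on GRCm38.p6, 5′ to 3′ on the plus strand, and end just before the first exon base or the annotated start. They are Myog chr1:134289754-134289988, Mef2c at its outermost start chr13:83503784-83504033, Mef2c at an internal start chr13:83573357-83573606, and Mef2d chr3:88142122-88142371. Capitals mark an E-box (CANNTG, which reads the same on both strands) or the A/T-rich MEF2 site, searched on both strands with any base allowed at its 2 ends, a form chosen after the Myog sequence had been seen.
Myog: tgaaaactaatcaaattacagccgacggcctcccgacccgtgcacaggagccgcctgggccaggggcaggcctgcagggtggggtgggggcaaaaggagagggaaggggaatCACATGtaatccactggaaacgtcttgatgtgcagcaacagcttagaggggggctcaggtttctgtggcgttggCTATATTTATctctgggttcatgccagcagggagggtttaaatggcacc
Mef2c outermost start: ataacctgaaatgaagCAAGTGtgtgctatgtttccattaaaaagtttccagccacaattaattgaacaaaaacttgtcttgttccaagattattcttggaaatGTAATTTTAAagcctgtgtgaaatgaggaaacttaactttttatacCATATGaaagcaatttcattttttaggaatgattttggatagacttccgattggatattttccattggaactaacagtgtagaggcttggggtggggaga
Mef2c internal start: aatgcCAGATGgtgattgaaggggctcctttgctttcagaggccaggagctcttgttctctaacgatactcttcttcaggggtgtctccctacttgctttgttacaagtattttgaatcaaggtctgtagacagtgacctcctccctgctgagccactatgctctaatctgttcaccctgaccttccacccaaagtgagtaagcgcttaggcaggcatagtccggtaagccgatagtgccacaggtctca
Mef2d: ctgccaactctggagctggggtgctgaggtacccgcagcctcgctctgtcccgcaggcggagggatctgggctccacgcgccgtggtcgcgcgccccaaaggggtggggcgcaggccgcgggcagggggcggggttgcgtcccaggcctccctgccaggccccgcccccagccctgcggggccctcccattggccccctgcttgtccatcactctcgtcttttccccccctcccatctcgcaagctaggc
In Myog the E-box CACATG began at -138 and the A/T-rich match CTATATTTAT at -64 relative to the RefSeq start, and a second E-box, CAGTTG, began at -12, beyond the bases shown. At the outermost Mef2c start the E-boxes CAAGTG and CATATG began at -234 and -100 and the A/T-rich match GTAATTTTAA at -146. The internal Mef2c start had the E-box CAGATG at -245, and the Mef2d bases held no match. The window of Mef2a, not shown, had a strict MEF2 site, CTAAAAATAG, at -2, and no E-box. Those of Myf5, Pax7 and another internal Mef2c start, also not shown, held no match. Of the 8 windows of members, only those of Myog and of the Mef2c starts shown held a CANNTG. RefSeq windows of 300 bases were at hand for 6 of the 10 genes, with 4 (Myod1, Myf6, Mymk and Mymx) not matched. Over 32851 such windows of mouse genes, 72.3% held a CANNTG, 16.3% a CAGCTG, 20.2% a CAGGTG or its complement CACCTG, 3.19% the strict MEF2 site and 9.23% the looser one, of which the strict site is a subset. A match is a description of letters, not of binding.

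Compared per kilobase of exon, the levels of the genes spanned a wide range. The length was that of all annotated exons of a gene merged: 15.715 kb for Mef2c, 14.681 for Mef2a, 5.985 for Mef2d and 1.861 for Myod1. The order between genes depends on this choice. In CPM, Mef2c (813) and Mef2a (668) were above Myod1 (329) in 2% HS, and Mef2c was above Mef2d in every group. In 2% HS the mean level was 690.5 ± 20.1 CPM per kb for Myog (SD, n = 6 in this and all groups), 471 ± 34.8 for Mymk and 177 ± 10.1 for Myod1, and every library kept this order. Mef2d (64.8 ± 2.64), Mymx (54.7 ± 5.47) and Mef2c (51.7 ± 3.05) followed, with neighbours in this order overlapping between libraries. Mef2a (45.5 ± 1.97), Pax7 (32.4 ± 0.968), Myf5 (9.26 ± 0.754) and Myf6 (6.12 ± 1.35) came last, each above the next in every library. The top 3 and the bottom 3 places were the same in all 5 groups. The middle of the order was not: Mymx was at the fifth place in 2% HS and at the seventh in the other 4 groups (41.7 ± 4.73 CPM per kb in SD, overlapping Mef2a, and 33.4 ± 3.03 in MET+LEU), and Mef2c was above Mef2d in MET+LEU (62.5 ± 2.43 against 55.8 ± 0.561), without overlap of the libraries.

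**Figure D1:**
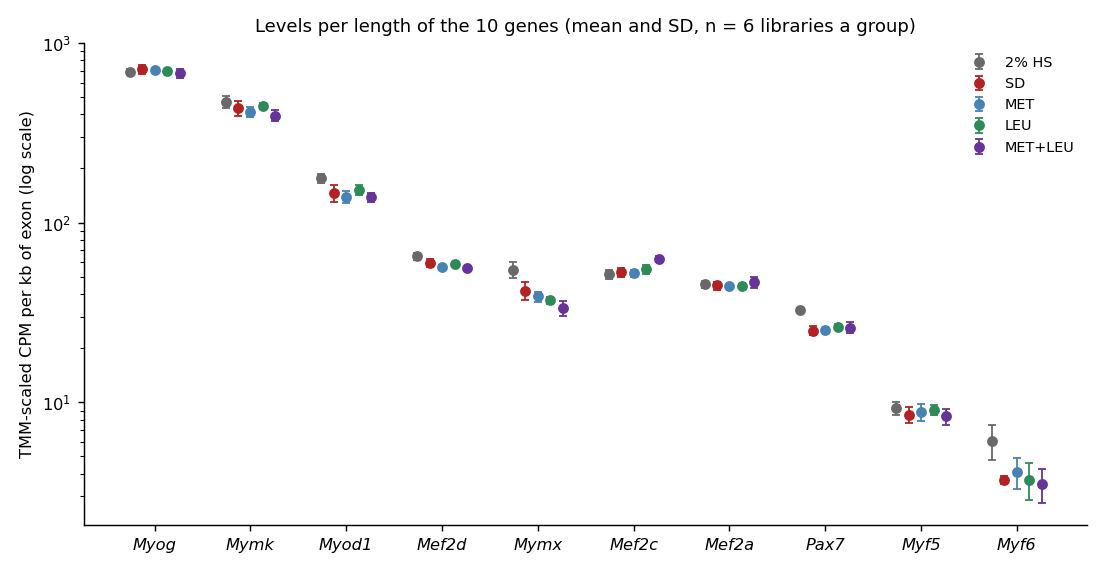
Mean level per kilobase of exon (TMM-scaled CPM per kb, log axis) of each gene in the 5 groups, with error bars of 1 SD over 6 libraries. Per length, Myog, Mymk and Myod1 led in every group, and Mef2c stood above Mef2d in MET+LEU, at 62.5 against 55.8 CPM per kb. The order rests on the length used, that of all annotated exons merged. In CPM, Mef2c was above Mef2d in every group.

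Serum deprivation was compared with continued serum to ask how the muscle program stood after 4 days of withdrawal. All 10 genes passed the filter on low counts, and of these 5 fell and none rose in SD vs. 2% HS: Pax7, Mymx, Myf6, Myod1 and Mef2d. A call here means an adjusted p under 0.05 (Benjamini-Hochberg) in the quasi-likelihood test of edgeR, and 27.8% of the 15907 genes tested were called in either direction and 13.9% lower. The libraries did not overlap for 2 of the 10, Myf6 and Pax7, against 13.6% of all genes. In RNA from whole cultures, fewer cells of a type and less RNA per cell cannot be told apart.

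Among the basic helix-loop-helix factors, Myod1, the lineage-determining factor, ranged from 299 to 353 CPM (median 332) in 2% HS and from 239 to 311 (median 269) in SD. It was lower in SD with 5 of 6 SD libraries below every 2% HS library, a log2 fold change of -0.28 (SE 0.06, edgeR quasi-likelihood, adjusted p = 4.1e-04). Myf6 ranged from 5.60 to 9.85 CPM (median 7.85) in 2% HS and from 4.28 to 4.98 (median 4.63) in SD, so that all SD libraries lay below all 2% HS libraries, although each value rests on 59 to 151 counts. Its fold change was the largest of the set (log2 fold change -0.73, SE 0.14, adjusted p = 8.3e-05 by edgeR). Myog, the differentiation factor, was not called: 994 to 1067 CPM (median 1034) in 2% HS and 1003 to 1156 (median 1052) in SD, a log2 fold change of 0.05 with a 95% interval of -0.02 to 0.12. Myf5 was also not called (16.9 to 20.8 against 16.1 to 20.99 CPM, log2 fold change -0.12, interval -0.27 to 0.04). The groups overlapped for both Myog and Myf5. The mean ratio of Myog to Myod1 in CPM was 3.14 ± 0.108 in 2% HS, and between 3.69 ± 0.215 and 4.09 ± 0.323 in the 4 serum-deprived groups.

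Pax7, the stem cell factor, ranged from 183 to 196 CPM (median 191) in 2% HS and from 139 to 160 CPM (median 144) in SD. All SD libraries were lower than all 2% HS libraries, and the log2 fold change was -0.37 (SE 0.04, edgeR adjusted p = 1.2e-10). Of 23 other genes tested from a list for muscle stem and reserve cells, 10 were lower and 2 were higher in SD, where 13.9% of all genes were lower. Their median log2 fold change was -0.09 against 0.00 over all genes. Cdh15, Ncam1 and Vcam1, among those lower, are also counted with the genes of adhesion and fusion below. The counts on this list are therefore not specific to stem or reserve cells. Notch3, a Notch receptor of the stem cell niche, went from 280 ± 14.8 to 141 ± 16.3 CPM (log2 fold change -0.98, edgeR adjusted p = 1.8e-11), and the Notch target Heyl from 136.5 ± 10.1 to 85.3 ± 5.55 CPM (-0.68, adjusted p = 1.0e-13). The cell-cycle gene Ccnd1 moved the other way, from 8.84 ± 0.886 to 20.1 ± 3.16 CPM (1.19, adjusted p = 2.0e-14). In MET+LEU vs. 2% HS, 15 genes of the list were lower and 4 higher. The stem cell marker Cd34 was among the higher (0.58 without MET+LEU replicate 6, edgeR adjusted p = 5.9e-10). Of the other stem cell markers on the list, Calcr was at 0 in all libraries and Pax3 and Chodl had at most 2 and 3 counts, while Pax7 was at 131 CPM or more throughout.

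Of the MEF2 factors only Mef2d was called. It ranged from 362 to 404 CPM (median 392) in 2% HS and from 335 to 381 (median 358) in SD, and 3 SD libraries lay below all of 2% HS (log2 fold change -0.12, SE 0.03, edgeR adjusted p = 0.0041). Mef2a stood at 668 ± 28.96 and 656 ± 33.9 CPM (log2 fold change -0.03, interval -0.10 to 0.05) and Mef2c at 813 ± 47.9 and 830.0 ± 43.9 CPM (0.03, interval -0.05 to 0.11), with overlapping libraries in both.

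Of the fusogens Mymx fell, from 48.5 to 62.9 CPM (median 55.6) in 2% HS to 36.3 to 49.0 (median 44.1) in SD. All SD libraries but 1 lay below all 2% HS libraries (log2 fold change -0.39, SE 0.06, edgeR adjusted p = 4.4e-06). Mymk ranged from 620.5 to 769 CPM (median 722) in 2% HS and from 580.3 to 740.4 (median 648) in SD, and was not called (log2 fold change -0.12, interval -0.23 to -0.004, adjusted p = 0.118 by edgeR). Mymk passed the threshold when 1 library was left out, either 2% HS replicate 1 (adjusted p = 0.0285) or SD replicate 1 (adjusted p = 0.0344). The neighbour of Mymx on the same strand, Slc29a1, a nucleoside transporter 1364 bp away, was also lower in SD (-0.21, adjusted p = 1.3e-05), and reads running from one gene into the other were not tested for. Neighbours of other members changed as well. Kcnc1 near Myod1 (-0.49, edgeR adjusted p = 6.6e-07) and Ppfia4 near Myog (-0.26, adjusted p = 2.8e-05) were lower. Adamtsl2 near Mymk was higher (0.40, adjusted p = 6.5e-08). The neighbours tested at Mef2a and Mef2d were not called.

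**Figure D2:**
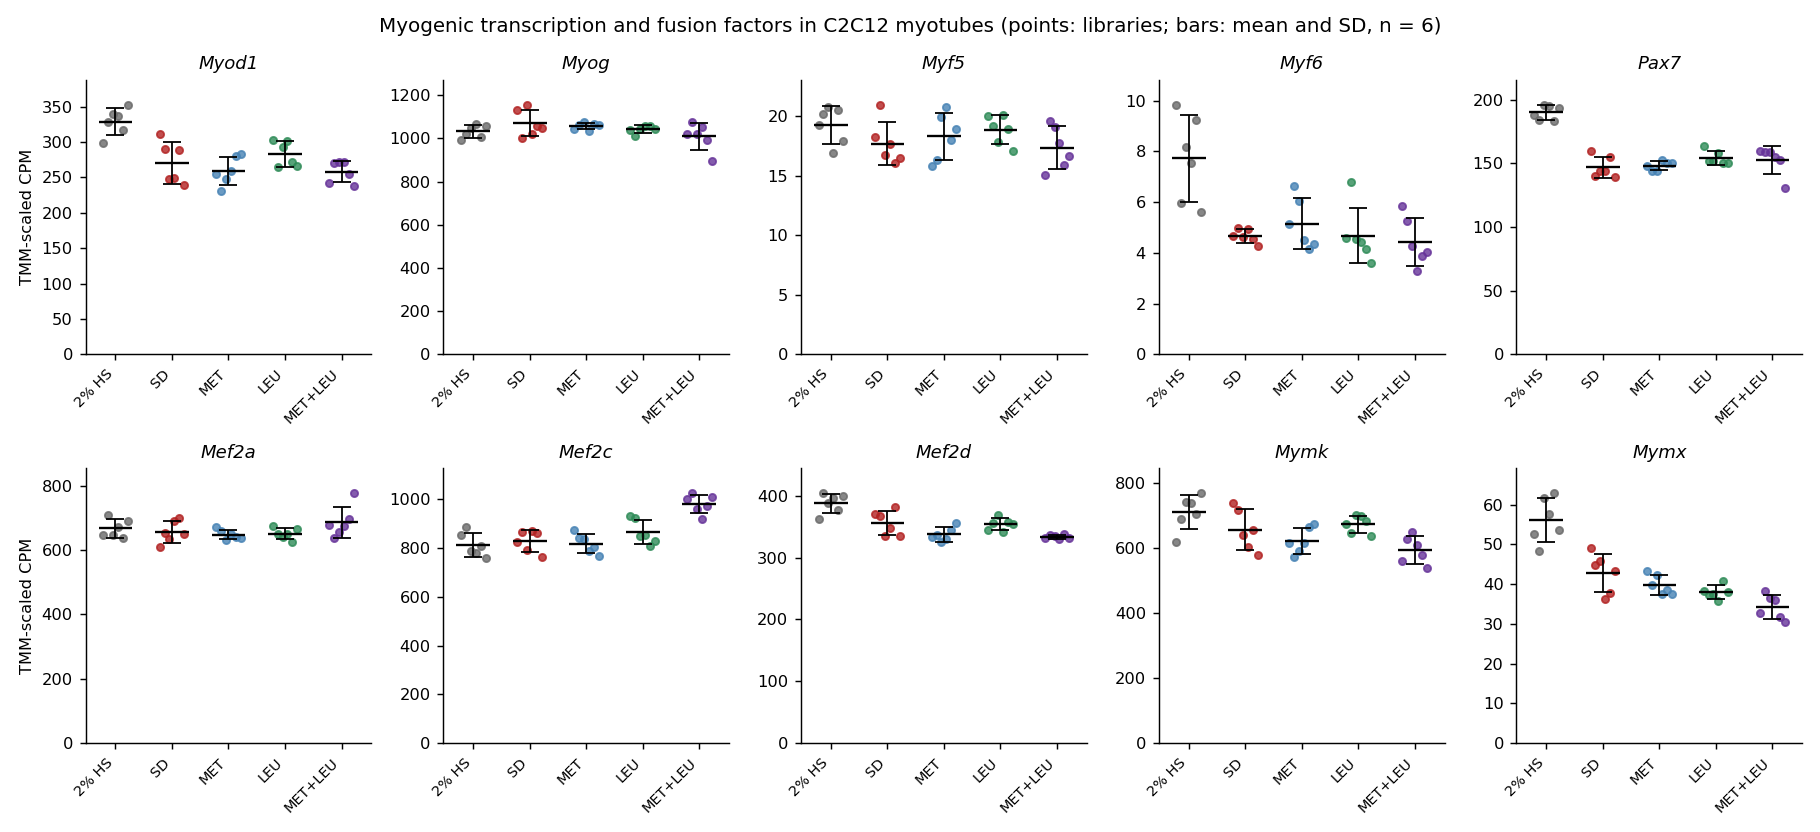
TMM-scaled CPM of each gene in every library, by group, with the mean and 1 SD (n = 6). Pax7 and Myf6 separated 2% HS from SD without overlap, and Mef2c in MET+LEU (920.1 to 1025 CPM) lay above all SD libraries (764 to 869 CPM).

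Beyond the 10 genes, those that act on or under them changed in both directions with serum deprivation. For the counts that follow, 27.8% of all genes tested were called in this comparison and 13.9% were called lower. Of 45 partners, co-factors and upstream regulators of the basic helix-loop-helix factors, 20 were lower and 7 higher, with a median log2 fold change of -0.09. The repressor Zbtb18 fell from 256.5 ± 10.2 to 190.3 ± 6.02 CPM (-0.43, edgeR adjusted p = 5.0e-14), and Mdfic, a relative of the inhibitor I-mfa, from 89.9 ± 3.45 to 72.1 ± 3.81 CPM (-0.32, adjusted p = 6.0e-09). Of 35 co-factors and signalling enzymes of MEF2, 9 were lower and 7 higher (median 0.03). The kinases Camk2a and Camk2d fell (129 ± 4.28 to 100.5 ± 2.89 CPM, and 141 ± 8.39 to 111 ± 6.56 CPM), and the calcineurin-responsive factor Nfatc1 rose (53.4 ± 1.64 to 69.4 ± 5.76 CPM). Of 46 other genes of myoblast adhesion and fusion, 14 were higher and 13 lower (median 0.02), the interleukin receptor Il4ra (0.50), the membrane-shaping protein Ehd2 (0.42) and the tetraspanin Cd9 (0.54) leading the rises by adjusted p. Of 44 known target genes of these factors, 18 were lower and 7 higher (median -0.12). The cell-cycle inhibitor Cdkn1a rose from 1766 ± 73.9 to 2394 ± 179 CPM (0.44, edgeR adjusted p = 5.1e-12), while the M-band protein Myom1 (-0.43, adjusted p = 1.7e-10) and the retinoblastoma gene Rb1 (-0.38, adjusted p = 5.0e-10) fell. Some genes stood on more than 1 list, Cdh15 and Heyl among them. Muscle fibre markers moved with these results, 8 of 16 lower and 3 higher. Their summed level, of which Ttn was the largest part, was 47050 to 49910 CPM in 2% HS and 38680 to 41500 in SD. The part of these markers in the results was not tested. Of 12 tested markers of other cell types 5 were higher in SD, among them the mesenchymal receptor Pdgfra (9.43 ± 1.04 to 16.4 ± 1.42 CPM, 0.79, adjusted p = 5.2e-12) and the collagen Col1a1 (564 ± 37.7 to 771 ± 59.8 CPM, 0.45, adjusted p = 4.2e-10). The most abundant, the smooth muscle actin Acta2, which myoblasts also express, was the 1 that was lower (2553 ± 76.3 to 2027 ± 187 CPM, -0.33, adjusted p = 5.9e-09), so that the sum went from 3343 to 3584 CPM down to 2889 to 3511 CPM while most called markers rose. Their part was not tested either.

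Metformin or leucine alone was compared with SD to ask what each did in the absence of serum. None of the 10 genes was called in MET vs. SD or in LEU vs. SD by edgeR or by DESeq2, with 1 in each at an unadjusted p under 0.05. The share of all genes called was 0.157% and 0.553%. In MET the member with that low p was Mef2d, at 324.5 to 356 CPM (median 335) against 335 to 381 (median 358) in SD, with 3 MET libraries below all SD libraries (log2 fold change -0.08, interval -0.15 to -0.01, edgeR adjusted p = 0.417). In LEU it was Mymx, at 35.7 to 40.9 CPM (median 37.9) against 36.3 to 49.0, with all but 1 LEU library inside the SD range (log2 fold change -0.18, interval -0.31 to -0.05, edgeR adjusted p = 0.281). The other log2 fold changes lay between -0.11 and 0.14 in MET and between -0.04 and 0.09 in LEU. For the abundant genes the intervals were narrow: Myog was -0.02 (-0.09 to 0.06) in MET and -0.04 (-0.11 to 0.04) in LEU, and Mef2c -0.02 (-0.10 to 0.06) and 0.06 (-0.02 to 0.14). For Myf6 they were wide, 0.14 (-0.16 to 0.44) in MET and 0.00 (-0.30 to 0.31) in LEU. On the lists of regulators, fusion genes, targets and stem cell genes described below, 1 gene was called in each comparison, named after its values were seen: the repressor Bhlhe40 was lower in MET (-0.18, adjusted p = 0.016), and the fast troponin Tnnc2 was higher in LEU (0.60, adjusted p = 0.036).

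With MET+LEU, 1 of the 10 genes rose and 2 fell vs. SD: Mef2c was higher, and Mymx and Mef2d were lower. Of all genes tested 18.4% were called in this comparison, 10.6% higher and 7.80% lower. The groups did not overlap for 1 member, Mef2c, against 5.34% of all genes. MET, LEU and MET+LEU were set against the same 6 SD libraries, which also enter SD vs. 2% HS, so these comparisons are not independent of each other.

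Mef2c, a MEF2 factor of differentiating and contracting muscle, ranged from 764 to 869 CPM (median 844) in SD and from 920.1 to 1025 CPM (median 987) in MET+LEU. No SD library reached the lowest of the 6 MET+LEU libraries, and the log2 fold change was 0.24 (SE 0.04, interval 0.16 to 0.32, edgeR adjusted p = 3.3e-05). Without MET+LEU replicate 6 it was 0.23 (adjusted p = 3.4e-05), and over all 38 other settings and left-out libraries it stayed between 0.22 and 0.26 with an adjusted p of at most 0.0022. Mef2c was also the member that was called higher in MET+LEU against each agent alone. In MET it ranged from 767 to 873 CPM, below every MET+LEU library (log2 fold change 0.26, edgeR adjusted p = 4.4e-05), and in LEU from 809.9 to 931 CPM, where 5 of 6 MET+LEU libraries were above all LEU libraries (0.18, adjusted p = 0.0059). Without MET+LEU replicate 6 these were 0.25 (adjusted p = 4.2e-05) and 0.17 (adjusted p = 0.0126). The test of the difference itself, the interaction of metformin and leucine, gave 0.20 for Mef2c (SE 0.06, interval 0.08 to 0.32, unadjusted p = 0.0012 and adjusted p = 0.249 by edgeR), so it was not called. None of the 10 genes was called for the interaction by edgeR or DESeq2, with 1 (Mef2c) at an unadjusted p under 0.05 and 0.0503% of all genes called.

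Of the other MEF2 factors, Mef2d was at 330.3 to 338 CPM (median 333) in MET+LEU against 335 to 381 in SD, 3 libraries lying below all of SD (log2 fold change -0.09, SE 0.03, edgeR adjusted p = 0.0453). This call sat at the threshold: it was lost (adjusted p 0.0501 to 0.126) without any 1 of 10 libraries, which were SD replicates 1, 2 and 5, MET replicate 1, LEU replicates 2 and 6, and MET+LEU replicates 1, 3, 4 and 6 (adjusted p = 0.0527 without the last). Mef2a ranged from 637 to 776 CPM (median 677) against 609 to 698 (median 651) and was not called (0.07, interval -0.01 to 0.14); its highest library was MET+LEU replicate 6, without which the estimate was 0.03. As a share of the CPM of the 3 MEF2 genes together, Mef2c made up 43.5 ± 1.69% with serum and 45.1 ± 0.887% without it, 45.3 ± 1.21% after metformin, 46.3 ± 1.27% after leucine and 49.0 ± 1.36% after both. The lowest MET+LEU library (47.7%) was above the highest SD, MET and 2% HS libraries (45.9%, 46.7% and 45.8%) and below the highest LEU library (47.9%).

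Of the fusogens Mymx was lower again, at 30.5 to 38.3 CPM (median 34.4) in MET+LEU against 36.3 to 49.0 (median 44.1) in SD. Of the MET+LEU libraries 4 lay below every SD library (log2 fold change -0.32, SE 0.07, edgeR adjusted p = 4.7e-04, and -0.29 with adjusted p = 0.0014 without MET+LEU replicate 6). Slc29a1 next to it was also lower (-0.16, adjusted p = 0.0023). Against MET alone Mymx was called lower (-0.21, edgeR adjusted p = 0.035), a call that was lost without MET replicates 1, 2 or 3 or MET+LEU replicates 1, 5 or 6 (adjusted p 0.0547 to 0.0937), and against LEU it was not (-0.14, adjusted p = 0.193). Mymk ranged from 541 to 649 CPM (median 595) in MET+LEU and from 580.3 to 740.4 in SD, 3 libraries below all of SD, and was not called (-0.14, interval -0.25 to -0.03, edgeR adjusted p = 0.0669). It was called without 2% HS replicate 1, SD replicates 4 or 6, or MET+LEU replicate 3 (adjusted p 0.019 to 0.0428), and not without MET+LEU replicate 6 (-0.12, adjusted p = 0.192). Against LEU Mymk was lower (-0.18, edgeR adjusted p = 0.0416), with 5 MET+LEU libraries below all LEU libraries (639 to 703 CPM), and this call was lost without LEU replicates 1, 3, 4 or 5 or MET+LEU replicates 1, 5 or 6 (adjusted p 0.0576 to 0.135). With these, 2 of the 10 genes were called against LEU and 2 against MET, where 6.28% and 8.69% of all genes were. The libraries did not overlap for 1 member in each (Mef2d against LEU, uncalled, and Mef2c against MET), compared with 3.60% and 3.77% of all genes. The mean CPM ratio of Mymk to Mymx was 12.7 ± 1.32 with serum and 15.4 ± 1.53 without it, 15.7 ± 1.74 after metformin, 17.8 ± 1.13 after leucine and 17.4 ± 0.672 after both. The libraries of LEU and MET+LEU (16.4 or more) lay wholly above those of 2% HS (14.4 or less).

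None of the basic helix-loop-helix factors nor Pax7 was called in MET+LEU vs. SD. Myod1 ranged from 238 to 271 CPM in MET+LEU (log2 fold change -0.07, interval -0.19 to 0.05), Myf5 from 15.1 to 19.6 (-0.03, interval -0.18 to 0.13) and Myf6 from 3.27 to 5.86 (-0.07, interval -0.38 to 0.24), all overlapping SD. Myog ranged from 895.5 to 1074 CPM (-0.08, interval -0.16 to -0.01, edgeR adjusted p = 0.0985), was called without MET+LEU replicate 2 (adjusted p = 0.0444), and was at -0.06 (adjusted p = 0.280) without MET+LEU replicate 6. Pax7 ranged from 131 to 159.9 CPM (median 157; 0.06, interval -0.02 to 0.14), and was at 0.09 (adjusted p = 0.0644) without replicate 6, its lowest library.

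**Figure D3:**
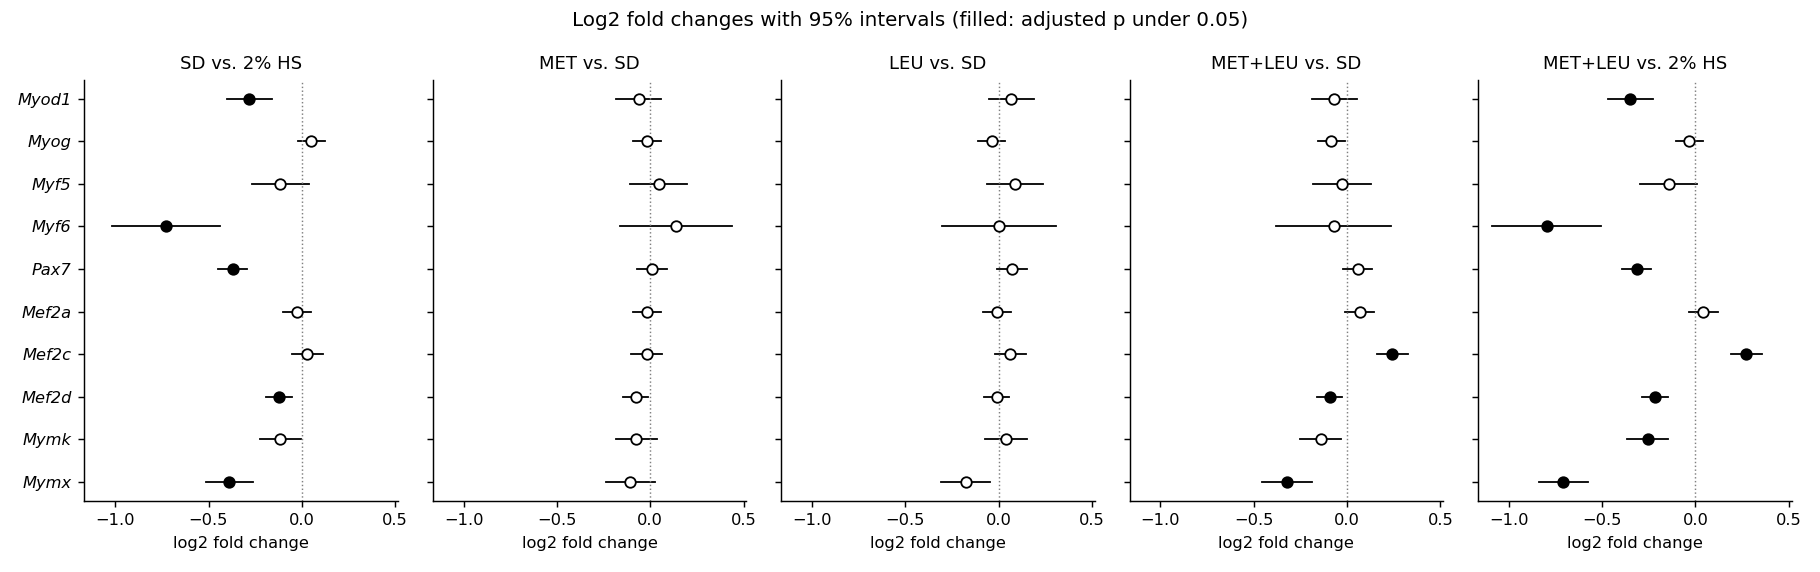
Log2 fold changes of the 10 genes (horizontal axis) with 95% intervals from edgeR in 5 comparisons, filled where the adjusted p was under 0.05. SD vs. 2% HS has 5 filled points, all below 0, MET and LEU vs. SD have none, and MET+LEU vs. SD has Mef2c at 0.24 and Mymx and Mef2d below 0.

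Set against the serum-fed cultures, 7 of the 10 genes differed in MET+LEU vs. 2% HS, 1 higher and 6 lower, where 42.3% of all genes were called (22.1% higher and 20.3% lower). Mef2c was higher (log2 fold change 0.27, edgeR adjusted p = 4.2e-07), and Myf6 (-0.80, adjusted p = 1.4e-05), Mymx (-0.71, adjusted p = 3.2e-12), Myod1 (-0.35, adjusted p = 1.4e-05), Pax7 (-0.32, adjusted p = 6.2e-09), Mymk (-0.26, adjusted p = 2.5e-04) and Mef2d (-0.22, adjusted p = 8.2e-07) were lower. Mymx was the member with the lowest adjusted p, its 6 MET+LEU libraries at 30.5 to 38.3 CPM against 48.5 to 62.9 CPM. Myog (-0.03, interval -0.11 to 0.04), Mef2a (0.04, interval -0.04 to 0.12) and Myf5 (-0.14, interval -0.30 to 0.01) were not called. All 7 calls held without MET+LEU replicate 6, with Pax7 at -0.28.

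Among the genes that act with the 10, the known targets were called higher more often than lower in MET+LEU vs. SD, 17 against 3 of 44, with a median log2 fold change of 0.10 against -0.01 over all genes. Those with the lowest adjusted p were proteins of the contractile apparatus. Lmod3, which builds thin filaments, went from 143 ± 4.78 to 192 ± 30.2 CPM (0.43, edgeR adjusted p = 3.1e-06), and the fast troponins Tnnt3 from 453 ± 33.2 to 797 ± 224 (0.82, adjusted p = 1.1e-05) and Tnnc2 from 176.5 ± 17.4 to 348 ± 112 (0.98, adjusted p = 1.6e-05). Of the regulators of the basic helix-loop-helix factors 9 were higher and 4 lower (median 0.05). Tcf3, an E protein that pairs with them, went from 73.0 ± 6.44 to 61.7 ± 4.68 CPM (-0.24, adjusted p = 5.0e-04), and the histone methyltransferase Suv39h1 from 16.99 ± 1.20 to 14.02 ± 0.784 CPM (-0.28, adjusted p = 0.0065). Of the MEF2 co-factors and kinases 1 was higher and 7 lower (median -0.04), with Camk2a going from 100.5 ± 2.89 to 89.0 ± 3.70 CPM (-0.18, adjusted p = 3.7e-04). Of the fusion genes 5 were higher and 6 lower (median -0.03), M-cadherin (Cdh15) going from 362.5 ± 28.5 to 308 ± 21.3 CPM (-0.23, adjusted p = 4.3e-05) and the tetraspanin Cd81 from 414 ± 9.05 to 374 ± 20.9 CPM (-0.15, adjusted p = 0.0019). Of the stem and reserve cell genes 2 were higher and 9 lower (median -0.10). Notch1 (-0.28, adjusted p = 2.0e-06) and its ligand Dll1 (-0.21, adjusted p = 3.9e-04) were among the 9. The 2 higher were Vcam1 (0.15, edgeR adjusted p = 0.018) and Dek. Without MET+LEU replicate 6 Vcam1 was at 0.15 (edgeR adjusted p = 0.0185) and Dek at 0.17 (adjusted p = 0.035). Pax7 itself was not called. For reference, 10.6% of all genes were called higher and 7.80% lower in this comparison. MET+LEU replicate 6 was the highest of its group for Lmod3, Tnnt3 and Tnnc2, and without it they were at 180.3 ± 6.59, 708 ± 58.3 and 304 ± 38.7 CPM (n = 5; 0.33, 0.64 and 0.78, edgeR adjusted p = 3.4e-10, 1.1e-08 and 1.5e-06). Tcf3 (-0.21), Suv39h1 (-0.26), Camk2a (-0.17), Cdh15 (-0.20), Cd81 (-0.13), Notch1 (-0.27) and Dll1 (-0.20) were also still called without it (edgeR adjusted p of 0.0173 or less). In that fit 17 targets were higher and 3 lower, 6 and 3 regulators of the basic helix-loop-helix factors, 1 and 4 of the MEF2 list, 5 and 6 fusion genes, and 2 and 7 stem cell genes. With only the SD and MET+LEU libraries in the fit the calls were fewer: 2 higher and 3 lower among the regulators of the basic helix-loop-helix factors, 1 and 3 on the MEF2 list, 1 and 3 among the fusion genes and 0 and 4 among the stem cell genes, with 14 and 3 of the targets. Without SD replicate 1 the numbers called fell to 7 for the regulators of the basic helix-loop-helix factors, 5 for the MEF2 list and 7 for the stem cell list, and without MET+LEU replicate 5 to 8 for the first of these lists. Fibre markers, some of which are also on the target list, were called higher in 9 of 16 cases and lower in 1. Their summed level overlapped between the groups, at 38680 to 41500 CPM (median 41270) in SD and 39880 to 43180 CPM in 5 MET+LEU libraries. The sixth, replicate 6, was at 49500 CPM (median of all 6, 41760). Ttn was the largest part of this sum. Of 12 markers of other cells tested 1 was higher and 3 lower (sum 2850.0 to 3152 CPM in MET+LEU, replicate 6 within this range), including Col1a1 (-0.35, adjusted p = 2.1e-06, and -0.34 with adjusted p = 1.7e-05 without replicate 6). Their part in the results was not tested.

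Some of the genes varied together over the 30 libraries. These correlations of log2 CPM are descriptions over libraries that share their scaling and the 5 group means, and the second value in each case is that of the deviations from the group means. The closest pair in the set was Myod1 and Mymk, the determination factor and the fusogen, with Pearson's r = 0.895 over the libraries and 0.906 for the deviations, so that a library high in Myod1 within its group tended to be high in Mymk. Mymk was the second most similar of all tested genes to Myod1, after Frmpd1 (r = 0.909, deviations 0.793), and Myod1 was the most similar to Mymk. The genes nearest to Mymx were others, the adhesion gene Cdh15 (r = 0.951, deviations 0.713), the myokine gene Erfe (0.951, 0.713) and Arhgef2 (0.936, 0.741). The nearest genes to Pax7 were Chrd, an antagonist of bone morphogenetic proteins (0.930, 0.680), the ligand Bmp6 (0.926, 0.567) and Dnal1 (0.924, 0.571), with values for the deviations well below those over all libraries.

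**Figure D4:**
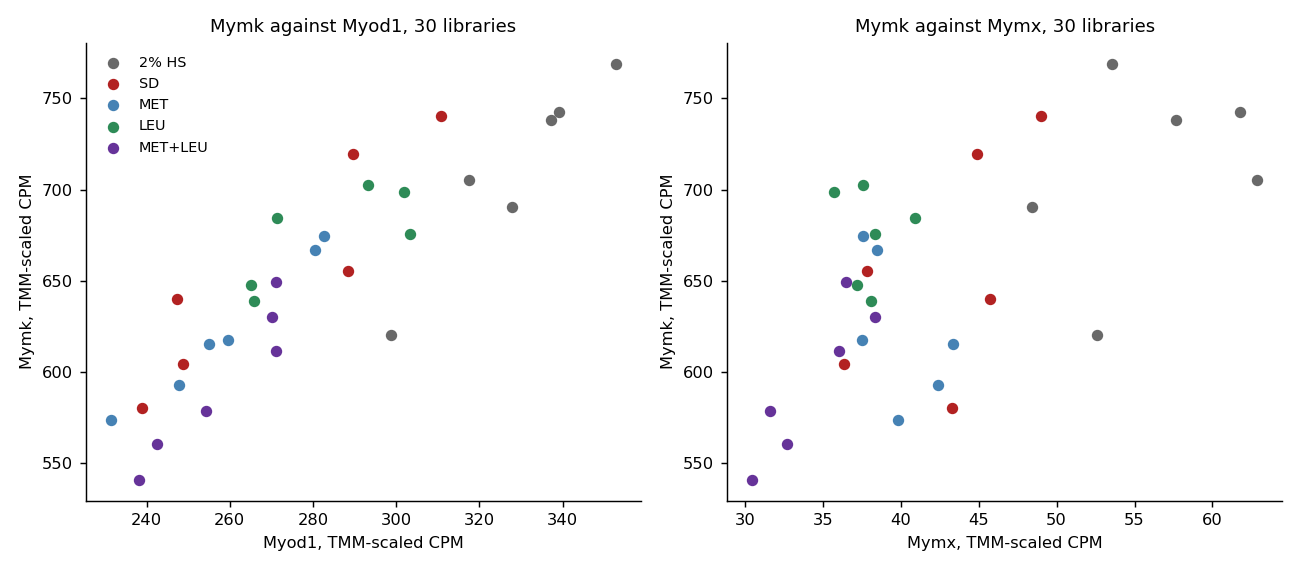
TMM-scaled CPM of Mymk (vertical axes) against Myod1 (left) and Mymx (right) in the 30 libraries, coloured by group. Mymk followed Myod1 within and between groups (r = 0.895 over the libraries and 0.906 for deviations from the group means), while Mymx separated 2% HS (48.5 CPM or more) from most other libraries.

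Among the genes nearest to Mef2c were Tceal7 (r = 0.825, deviations 0.639) and Exoc3 (0.819, 0.674). Nearest to Mef2d were Nav1 (0.894, 0.795), Nisch (0.893, 0.576) and the autophagy kinase Ulk1 (0.890, 0.589). Mef2a went with Zcchc7 (0.878, 0.883), the ubiquitin ligase Trip12 (0.873, 0.885) and Ylpm1 (0.856, 0.830), and Myog with the translation factor Eif5a (0.825, 0.799), the guanine nucleotide synthesis enzyme Impdh1 (0.813, 0.772) and the collagen cross-linking enzyme Loxl1 (0.809, 0.763). Myf6 went with Ddit4l (0.882, 0.729), the transcription factor Ets2 (0.843, 0.640) and Rassf2 (0.827, 0.551). Myf5, with 206 to 355 counts a library, had no gene above 0.693 (Urb1, deviations 0.679), followed by Rab11fip3 (0.664, 0.616) and Armc6 (0.643, 0.626). After Frmpd1 and Mymk, Myod1 went with Nav1 (0.894, 0.811), and Mymk after Myod1 with Rfx1 (0.881, 0.829) and Atp5g1 (0.880, 0.844). The values over the libraries of Myog and Mef2a rested in part on MET+LEU replicate 6. Without it Myog was at 0.669 with Eif5a, 0.641 with Impdh1 and 0.632 with Loxl1, and Mef2a at 0.790 with Zcchc7, 0.777 with Trip12 and 0.751 with Ylpm1. Mef2c was at 0.799 with Tceal7 and 0.798 with Exoc3, and Myod1 with Mymk at 0.892. The values for the deviations were not recomputed without MET+LEU replicate 6. That library was the lowest of all for Myog (895.5 CPM) and the highest for Mef2a (776.4 CPM), so it enters them.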

How the data were processed

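Total RNA of C2C12 myotubes was depleted of ribosomal RNA, and stranded libraries were sequenced by the authors as 150 by 150 bp read pairs. The deposited values were raw read counts per Ensembl gene, not normalized, for 30 libraries. The submitters' processing notes name STAR 2.7.6a, cutadapt 1.16, featureCounts 1.6.3, DESeq2 1.30.1 and GRCm38; the annotation release and strand setting of the counting are not given in the sources used here. Symbols, coordinates and exon lengths came from GENCODE M21 on that build, which matched 55141 genes and left 346 unmatched.

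Counts were analysed in R 4.3.3 with edgeR 4.0.16: filterByExpr (minimum count 10, minimum total 15) left 15907 genes, all 10 members among them, and libraries were scaled by TMM. A quasi-likelihood model with a mean for each of the 5 groups was fitted to all 30 libraries and tested by contrast, with Benjamini-Hochberg adjustment over all tested genes and a threshold of 0.05. Levels are TMM-scaled CPM, and log2 CPM used a prior count of 2. DESeq2 1.42.0 and limma 3.58.1 (voom with quality weights), other scalings and filters, and leaving out each library were alternatives. Depth was 12784960 counts or more. Intervals of fold changes come from the fit and include the spread between libraries, whereas the limit of 3 counts for a gene at 0 covers counting error only. Replicate numbers were not taken to pair the samples: the mean correlation of deviations from the group means was 0.02 for libraries with the same number and -0.00 for different numbers.

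The members and gene lists were chosen with earlier results of these data known, so counts over them are descriptions. Beside the members, the named genes are up to 3 per list and comparison (SD vs. 2% HS, MET+LEU vs. SD) with the smallest adjusted p among called genes of mean log2 CPM of at least 1 without overlap of libraries, the 3 genes most correlated with each member, and genes overlapping or next to a member. Genes named outside this rule include Bhlhe40, Cd34, Dek, Ncam1 and Vcam1, and Tnnc2 in LEU vs. SD. The result for 1 gene among the most correlated is not reported here.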

Additional observations from a re-analysis of the deposited data

Results flagged for a closer look

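In 50 sets of 6 libraries (10 genes in 5 groups), 3 held a library at the end of the range with a gap to the nearest other library that was more than 0.625 of the whole range, where chance alone gives about 1 in 20. Pax7 in MET+LEU was lowest in replicate 6, the library with the high ribosomal RNA share, at 130.7 CPM with the nearest other library at 152.5 CPM. Both others were in LEU replicate 2, which was the highest for Myf6 (6.783 CPM, next 4.588) and the lowest for Myog (1012 CPM, next 1041). Without LEU replicate 2 the log2 fold change of Myf6 in LEU vs. SD was -0.13 (edgeR adjusted p = 0.872) in place of 0.00, and neither was called.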

How the results depend on the processing

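In 8 other settings (2 other scalings, 2 other filters, DESeq2, limma-voom with quality weights, the groups compared alone, and the replicate number as a block) and 30 fits each leaving out 1 library, no called member changed direction. The 5 calls of SD vs. 2% HS, the 7 of MET+LEU vs. 2% HS, and Mef2c and Mymx in MET+LEU vs. SD held in all of them. The cause of the changes below was not tested. Mef2d in MET+LEU vs. SD was lost with limma-voom (adjusted p = 0.0959), with all genes over 5 counts (0.0811) and with the 2 groups alone (0.129). Mymk and Myog were added there by upper-quartile scaling (5 members called in place of 3) and Mymk by DESeq2 (adjusted p = 0.0417). Of members called in MET+LEU vs. LEU, 1 was left with the block or with all genes over 5 counts, and DESeq2 added Mef2d (adjusted p = 0.0469). Mymk in SD vs. 2% HS was called by limma-voom (adjusted p = 0.0156). In MET+LEU vs. SD the called regulators of the basic helix-loop-helix factors went from 13 to 8 with upper-quartile scaling, 8 with limma-voom, 8 with all genes over 5 counts and 5 with the 2 groups alone, the MEF2 list from 8 to 4 with limma-voom and 4 with the 2 groups alone, the fusion list from 11 to 4 with the 2 groups alone, and the stem cell list from 11 to 7 with limma-voom and 4 with the 2 groups alone. Leaving out 1 library gave 7 to 14, 5 to 10, 10 to 11 and 7 to 11 for these lists, and 1 to 2 members in MET+LEU vs. LEU and in MET+LEU vs. MET.

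Signs that changed were all of uncalled estimates near 0. With limma-voom Mef2d in LEU vs. SD was at 1.2e-05, Myf6 in LEU vs. SD at -0.0316, Pax7 in MET+LEU vs. LEU at 0.0145 and Myod1 in MET+LEU vs. MET at 0.0034. Leaving out 1 library, MET vs. SD ranged from -0.0349 to 0.0065 for Myog, -0.0047 to 0.0364 for Pax7 and -0.0367 to 0.0025 for Mef2a. LEU vs. SD ranged from -0.0275 to 0.0098 for Mef2d, -0.0298 to 0.0095 for Mef2a and -0.134 to 0.0729 for Myf6. MET+LEU vs. SD ranged from -0.0675 to 0.0257 for Myf5 and -0.176 to 0.0026 for Myf6, MET+LEU vs. LEU from -0.0392 to 0.0186 for Pax7 and -0.182 to 0.0625 for Myf6, and MET+LEU vs. MET from -0.0285 to 0.00021 for Mef2d and -0.0388 to 0.018 for Myod1. The interaction ranged from -0.0255 to 0.0118 for Mef2d, -0.0528 to 0.0054 for Pax7 and -0.0802 to 0.0079 for Mymx.

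The replicate numbers were not taken to pair the libraries, since the correlations of deviations between libraries of the same number ran from -0.0913 to 0.142 and were not all above 0.1. As a hint from the data and not the design, 11 of 30 libraries correlated best with their own number, where a choice among 6 numbers would give about 5. With the replicate block the call of Mymk in MET+LEU vs. LEU was lost (adjusted p = 0.0701), Myf6 in LEU vs. SD was at -0.0025, and no other member changed its call. Depth limited Myf6 and Myf5 most, at 50 to 151 and 206 to 355 counts a library.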
